A study of Mus musculus with 2 samples.

Results

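Metallothionein 1 (Mt1), metallothionein 2 (Mt2), the zinc exporter Slc30a1 and the zinc-sensing transcription factor Mtf1 were followed across the cells of mouse subcutaneous tumours. They are 4 of the 32285 genes in the deposited count matrices, and they were chosen by name with the UMI levels of these same 2 libraries already known; the cell classes were selected on UMIs of Ncr1, C1q genes, Krt20, Ptprc and Car9. The diet values below are therefore a description. The study has 2 libraries, 1 from tumours of mice on a diet without serine and glycine (named -SG, as in the labels) and 1 from tumours of mice on the control diet. Each is a 10x Genomics immune-profiling library, which counts unique molecular identifiers (UMIs, 1 per captured RNA molecule) per gene and cell and reads the T cell receptor (TCR). The labels name mouse tumour as the source of both and give no strain, age, tumour line or number of mice, and their extraction text describes human heart tissue. With 1 library per diet there was no replicate check, so no test between diets was made. The 95% intervals given are exact Poisson (levels), conditional binomial (ratios) or Clopper-Pearson (shares) intervals, and they cover counting error only.

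Metallothioneins are small, cysteine-rich proteins that bind zinc and copper and buffer the free zinc of a cell. Mtf1 senses free zinc and switches on Mt1, Mt2 and Slc30a1 through metal response elements, short DNA motifs with a common core. Mt1 and Mt2 are also induced by glucocorticoid hormones, by oxidants and in low oxygen, and they are readily detected in many tumours.

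The 4 genes lie on 3 chromosomes (positions in GRCm38.p6, from RefSeq). Mt2 (ENSMUSG00000031762, chr8:94172618-94173567) and Mt1 (ENSMUSG00000031765, chr8:94178883-94180327) are neighbours, with Mt3 and Mt4 before them in the same cluster. Slc30a1 (ENSMUSG00000037434) is at chr1:191906697-191913248 and Mtf1 (ENSMUSG00000028890) at chr4:124802549-124849800. All 4 had a promoter in the RefSeq table, 250 bases before to 50 after the start listed there, which for Mt1 and Slc30a1 lies inside the gene span given above. The metal response core was searched there on both strands as TGCACNC or TGCGCNC. It was found at 3 places in the Mt1 window, 4 in the Mt2 window, 2 in the Slc30a1 window and 0 in the Mtf1 window. Of 32851 promoters, 25.7% held it at 1 place or more, 6.14% at 2 or more, 1.31% at 3 or more and 0.295% at 4 or more. The stretches around the starts of Mt1 (chr8:94178969-94179118) and Mt2 (chr8:94172498-94172647) are shown because, of the 4 genes, these 2 were higher in tumour cells of the -SG library. Both run from 120 bases before the listed start to 30 bases after it, on the plus strand of GRCm38.p6, with the core matches of either strand in capitals.
Mt1: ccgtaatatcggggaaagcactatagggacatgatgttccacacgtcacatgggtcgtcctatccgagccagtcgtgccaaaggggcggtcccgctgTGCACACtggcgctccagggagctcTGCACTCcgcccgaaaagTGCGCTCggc
Mt2: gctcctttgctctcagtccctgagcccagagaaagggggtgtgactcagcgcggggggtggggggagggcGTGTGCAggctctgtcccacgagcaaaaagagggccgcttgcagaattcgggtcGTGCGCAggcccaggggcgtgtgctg
In Mt1 all 3 matches read on the plus strand, while both matches shown for Mt2 read on the minus strand; its other 2 lie 223 and 128 bases before the start. A match is a run of letters and not a measured site.

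The -SG matrix held 7999 barcodes and 157234945 UMIs, of which 7913 barcodes were kept, and the control matrix held 8466 barcodes and 161332426 UMIs, of which 8262 were kept. Cells were classed by rule. T cells had a TRB contig (243 -SG and 242 control cells), and NK cells had an Ncr1 UMI and no contig (147 and 17). Macrophages had C1qa, C1qb and C1qc at 0.1% of UMIs or more and no Krt20 UMI (632 and 694), and tumour cells had a Krt20 UMI and no Ptprc UMI (4613 and 4121). Median depth was 5845 and 2754 UMIs in T cells, 6245 and 11056 in NK cells, 10472 and 9585 in macrophages and 23206 and 25087 in tumour cells. Of the epithelial markers checked in the tumour class without Car9, Tm4sf1 stood at 1039 and 1187 UMIs per 1000000 (CPM) and Krt18 at 17.7 and 22.5 CPM, but Krt8, Krt19, Krt7, Epcam and Cldn4 were each under 1 CPM. These cells are therefore Krt20-positive, Ptprc-negative cells, called tumour cells for short. The libraries shared 104 barcode sequences, of which 33 were tumour cells in both, 2 macrophages and 0 T or NK cells. No doublet caller was run, and cells that met the rule of 2 classes stayed in both.

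Mt1 and Mt2 were higher in tumour cells of the -SG library. Levels are UMIs summed over a class, scaled to CPM of its UMIs without receptor genes. In tumour cells Mt1 stood at 6537 CPM in the -SG library and at 1746 CPM in the control library (ratio 3.74, 3.72 to 3.76). Mt2 stood at 2064 CPM and 483 CPM, a ratio of 4.27 (4.23 to 4.31). Both were therefore close to 4 times as high without serine and glycine, and Mt2 had the highest ratio and Mt1 the 3rd highest of 2654 genes that passed the filter (a mean of 50 CPM and 30 UMIs in 1 library or more). Of those genes 0.867% were 2-fold or more higher. Because the 4 genes were chosen with this contrast known, that rank is given as a description. Slc30a1 and Mtf1 were too low to pass the filter in any class.

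**Figure D1:**
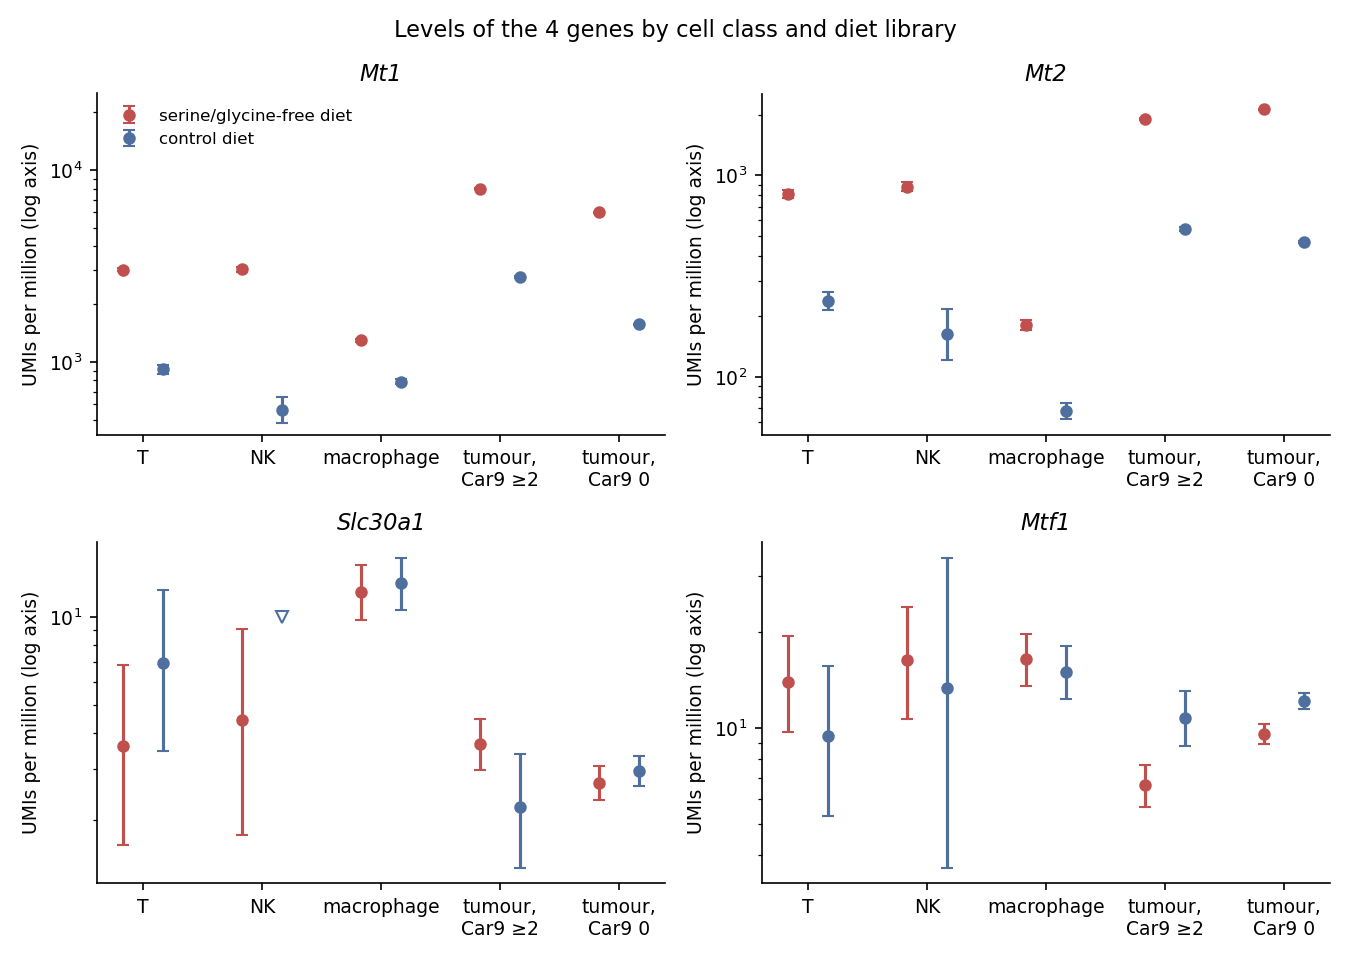
Levels of Mt1, Mt2, Slc30a1 and Mtf1 in UMIs per 1000000 (log axes, a range of its own in each panel) in 5 cell classes, with the serine/glycine-free library (red) left of the control library (blue). Bars are exact 95% Poisson intervals and the open triangle marks the level of 3 UMIs where none was counted; red lies above blue for Mt1 and Mt2 in all 5 classes, and Slc30a1 and Mtf1 stayed under 20 CPM.

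Within tumour cells the difference was present with and without the hypoxia marker Car9, a carbonic anhydrase induced in low oxygen. In cells with at least 2 Car9 UMIs, 868 and 334 of them, Mt1 was at 7989 CPM in the -SG library and at 2784 CPM in the control library (ratio 2.87, 2.83 to 2.91). In cells with no Car9 UMI, 3395 and 3487 of them, it was at 6015 CPM and 1573 CPM (ratio 3.82, 3.80 to 3.85). Mt2 was at 1907 CPM and 542 CPM in Car9-high cells (ratio 3.52, 3.42 to 3.62), and at 2127 CPM and 469 CPM in cells without Car9 (ratio 4.53, 4.48 to 4.58). In Car9-high cells 0.524% and in Car9-free cells 0.97% of tested genes were 2-fold or more higher. Cells with 1 Car9 UMI, which lie between, gave a ratio of 2.78 for Mt1 and 3.52 for Mt2. The 1930 and 2746 Ptprc-negative cells that met no rule, and hence had no Krt20 UMI, also had more Mt1 in the -SG library, at 7742 CPM against 2002 CPM (ratio 3.87).

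Compared within a library, Mt1 was higher in Car9-high cells and Mt2 was not in both. Mt1 stood at 7989 CPM in Car9-high cells against 6015 CPM in Car9-free cells of the -SG library (ratio 1.33, 1.32 to 1.34). In the control library it stood at 2784 CPM against 1573 CPM (ratio 1.77, 1.75 to 1.79). Mt2 was lower in Car9-high cells of the -SG library (1907 CPM against 2127 CPM, ratio 0.896, 0.888 to 0.905) and higher in those of the control library (542 CPM against 469 CPM, ratio 1.16, 1.12 to 1.19). The medians of all genes tested were log2 ratios of -0.12 and -0.13, and 1.22% and 1.02% of genes differed 2-fold or more either way, which none of the 4 genes did. Slc30a1 had ratios of 1.36 (1.06 to 1.74) and 0.749 (0.456 to 1.17), and Mtf1 of 0.690 (0.582 to 0.814) and 0.886 (0.716 to 1.09). Car9-high cells were deeper than Car9-free cells, at a median of 27470 against 21428 UMIs in the -SG library and 25614 against 25029 UMIs in the control library. Thinned to 5000 UMIs a cell, the Mt1 ratios were 1.25 and 1.79.

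The 2 metallothioneins thus differed in proportion between classes. Tumour cells held 3.17 Mt1 UMIs per Mt2 UMI in the -SG library (3.15 to 3.18) and 3.62 in the control library (3.58 to 3.65). Car9-high cells held 4.19 and 5.13, and Car9-free cells 2.83 and 3.35. Macrophages had the most Mt1 for their Mt2, at 7.15 (6.74 to 7.59) in the -SG library and 11.7 (10.6 to 12.8) in the control library. T cells, at 3.74 and 3.85, and NK cells, at 3.45 and 3.43, were near the value of their whole library, which was 3.35 and 3.73. The counts of both genes depend on how their transcripts are captured, so the proportion is compared between cells and not read as a ratio of molecules.

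Nearly every tumour cell carried Mt1. Cells with no Mt1 UMI numbered 8 of 4613 (0.173%) in the -SG library and 21 of 4121 (0.510%) in the control library. The median cell held 138 Mt1 UMIs in the -SG library, with the 5th and 95th percentiles at 29 and 384. In the control library the median was 34, with 5 and 127 at those percentiles. Per 10000 UMIs of the cell, the medians were 62.3 and 13.4. Mt2 was at 0 in 0.325% and 2.91% of tumour cells, with medians of 45 and 10 UMIs.

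**Figure D2:**
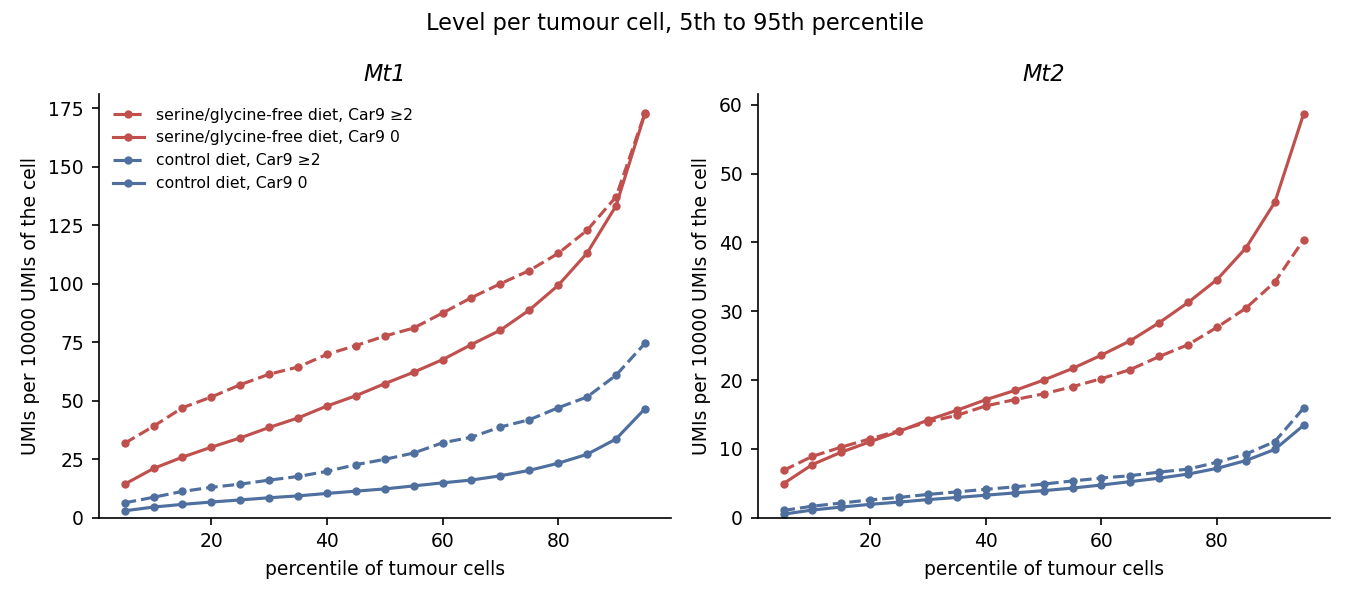
UMIs of Mt1 (left) and Mt2 (right) per 10000 UMIs of a tumour cell, at the 5th to 95th percentile of cells, for the serine/glycine-free library (red) and the control library (blue), in Car9-high cells (dashed) and cells without Car9 (solid). Both red Mt1 curves lie above both blue ones at each percentile drawn, and the Mt1 curves of the serine/glycine-free library meet at the 95th percentile, at 173 UMIs per 10000 in each.

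The spread between cells was wider than counting alone gives. With each tumour cell thinned to 5000 UMIs, which left 4539 and 4064 cells, the mean was 36.7 Mt1 UMIs in the -SG library and 9.57 in the control library. The variance over the mean was 18.7 and 11.3, where a Poisson count gives 1. The 2 distributions overlapped in part: 71.2% of -SG tumour cells were above the 90th percentile of control cells, and 3.72% of control tumour cells were above the -SG median. After thinning, 0.176% and 2.88% of cells had no Mt1 UMI. The tenth of cells with the most Mt1 held 26.0% of the Mt1 UMIs in the -SG library and 34.7% in the control library. For Mt2 the variance over the mean was 6.37 and 2.98. Slc30a1 and Mtf1, with means under 0.1 UMI per thinned cell, lay between 0.988 and 1.07, so no spread between cells was detectable at this depth.

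Mt1 per UMI was higher in shallower tumour cells. With tumour cells cut into 4 equal groups by depth, the shallowest had Mt1 at 9331 CPM in the -SG library and at 2447 CPM in the control library. The deepest had it at 5222 CPM and 1372 CPM. The part of depth in the spread was not tested; the -SG value was the higher one in each group.

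Across tumour cells of 5000 UMIs or more, Mt1 went most closely with Mt2. Pearson's r of ln(1 + UMIs per 10000) was 0.768 in the -SG library (n = 4539 cells) and 0.741 in the control library (n = 4064 cells). The cells of a library share its preparation, and both genes are divided by the same total, so these values describe the cells. The next genes among 7594 were Ndrg1, a gene induced in low oxygen (0.411 and 0.507), and Bnip3, a mitophagy receptor (0.374 and 0.486). After them came the glycolytic enzyme Eno2 (0.362 and 0.444), Higd1a (0.356 and 0.449), Fam162a (0.327 and 0.424), the glycolytic enzyme Gapdh (0.323 and 0.373) and Ankrd37 (0.314 and 0.424). The 99th percentile of all genes was 0.195 and 0.201. These 7 genes were each higher in Car9-high cells of both libraries, with ratios between 1.56 and 5.14, and each was higher in the -SG tumour cells, with ratios between 1.36 and 2.03. Car9 itself had r of 0.20 and 0.267 with Mt1, while Slc30a1 (0.0372 and 0.0889) and Mtf1 (-0.0567 and -0.00798) had almost none, in counts too sparse to read.

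Over the 10 points of 5 classes and 2 libraries, Mt2 was again the gene most like Mt1 among 2763 (r of log2(CPM + 5) 0.937). It was followed by the co-chaperone Dnajb1 (0.903), the ribosomal protein gene Rps28 (0.897), Vegfb (0.895) and Hikeshi (0.892). Rgs10 (0.970), Chmp4b (0.963) and Marcksl1 (0.962) were most like Slc30a1. Ahsa1 (0.895), 1810009A15Rik (0.875) and Abhd17a (0.868) were most like Mtf1. The points of a library share its depth and its free RNA, so these values are descriptions.

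Immune cells had less Mt1 than tumour cells, and its order among classes depended on the library. In the -SG library NK cells (3034 CPM, 2949 to 3121) and T cells (3027 CPM, 2959 to 3096) could not be told apart by counting error, and macrophages were lowest at 1297 CPM. In the control library T cells (915 CPM) were above macrophages (790 CPM), and NK cells (563 CPM, 481 to 655) were lowest. Only the macrophage rule leaves out cells with Krt20. With no condition on Krt20, C1q cells were at 2185 CPM and 855 CPM, which keeps both orders. Among cells without a Krt20 UMI the orders changed. NK cells were then at 1738 CPM and 599 CPM, macrophages at 1297 CPM and 790 CPM, and T cells at 1076 CPM and 624 CPM. As a share of the tumour cell level, T cells were at 0.463 and 0.524, NK cells at 0.464 and 0.322 and macrophages at 0.198 and 0.453. The ratio between the diets was 3.31 in T cells (3.13 to 3.50), 5.39 in NK cells (4.62 to 6.33) and 1.64 in macrophages (1.59 to 1.70). Without cells that had Krt20 or met the rule of 2 classes, it was 1.74 in T cells and 2.99 in NK cells, and in C1q cells with no condition on Krt20 it was 2.56 (2.49 to 2.62). With each cell weighted equally, the share of the tumour cell level was 0.151 and 0.135 in T cells, 0.179 and 0.144 in NK cells and 0.158 and 0.387 in macrophages, so that macrophages came first in the control library. Mt2 stood at 810 CPM against 238 CPM in T cells (ratio 3.40), at 879 CPM against 164 CPM in NK cells (ratio 5.35) and at 181 CPM against 67.7 CPM in macrophages (ratio 2.68, 2.41 to 2.98). For cells of 1 class without Krt20 the Mt2 ratio was 1.49 in T cells and 2.69 in NK cells, and with neither Krt20 nor Tm4sf1 it was 5.83 in T cells, 0.0957 in NK cells and 2.10 in macrophages. It was 10.3 in NK cells without the deepest 5% of cells and 4.70 in C1q cells with no condition on Krt20. In these classes 1.84%, 5.92% and 1.29% of tested genes were 2-fold or more higher in the -SG library. Erythrocyte genes moved with the diet here: their sum was 0 in -SG T cells and macrophages, against 747 CPM in control T cells and 280 CPM in control macrophages, and their part was not tested.

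Krt20, which T and NK cells should lack, was used to judge how much of this Mt1 was RNA of tumour cells. T cells had Krt20 at 88.9 CPM in the -SG library and at 54.3 CPM in the control library, which is 35.9% and 34.4% of the level in tumour cells. At the proportion of Mt1 to Krt20 over all barcodes of the library, 33.5 and 16.0 Mt1 UMIs per Krt20 UMI, this Krt20 corresponds to 2979 CPM of Mt1 (2600 to 3397) in -SG T cells and to 871 CPM (697 to 1076) in control T cells. The measured values, 3027 CPM and 915 CPM, lie within those intervals. At this proportion the Mt1 level of T cells was therefore not distinguishable from the level that their Krt20 gives, in either library. With Tm4sf1 in place of Krt20 the values were 3056 CPM and 947 CPM. With Krt18, at 34 and 11 UMIs, they were 4887 CPM (3384 to 6829) and 580 CPM (290 to 1038). The measured Mt1 lay below the first of these intervals and within the second. For Mt2, Krt20 gives 888 CPM and 234 CPM, against the measured 810 CPM and 238 CPM. The result depends on the reference. Against the tumour class alone, T cells had 0.463 (0.453 to 0.474) and 0.524 (0.497 to 0.552) of its Mt1 level. Beside this they had 35.9% and 34.4% of its Krt20 level and 42.9% and 48.9% of its Tm4sf1 level. The tumour class was selected on Krt20, and which reference fits better was not tested.

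In NK cells Krt20 gives 1903 CPM of Mt1 (1530 to 2339) in the -SG library, below the measured 3034 CPM. Tm4sf1 gives 2463 CPM (2263 to 2676) there, also below it. Krt18, with 15 UMIs, gives 3398 CPM (1902 to 5604), an interval that takes in the measured value. In the 17 control NK cells, which held 5 Krt20 UMIs, Krt20 gives 269 CPM (87.3 to 627), an interval that takes in the measured 563 CPM. C1q cells with no condition on Krt20, 720 and 746 of them, measured 2185 CPM against 1591 CPM from Krt20 (1449 to 1743) in the -SG library and 855 CPM against 303 CPM (259 to 353) in the control library. In C1q cells the measured Mt1 was therefore above the Krt20 value in both libraries. It was also above the Tm4sf1 values, 1535 CPM (1471 to 1602) and 325 CPM (310 to 341). Krt18, with 46 and 35 UMIs, gives 1705 CPM (1248 to 2274) and 331 CPM (231 to 460). The first of these intervals takes in the measured -SG value, so that reading depends on the gene used. Mt2 of C1q cells, at 472 CPM, lay within the 475 CPM (432 to 520.0) that Krt20 gives in the -SG library. In the control library it lay, at 101 CPM, above the 81.3 CPM (69.5 to 94.7) that Krt20 gives. Against the tumour class alone, C1q cells of the -SG library had 0.229 (0.222 to 0.236) of its Mt2 level, beside 19.2% of its Krt20 level.

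**Figure D3:**
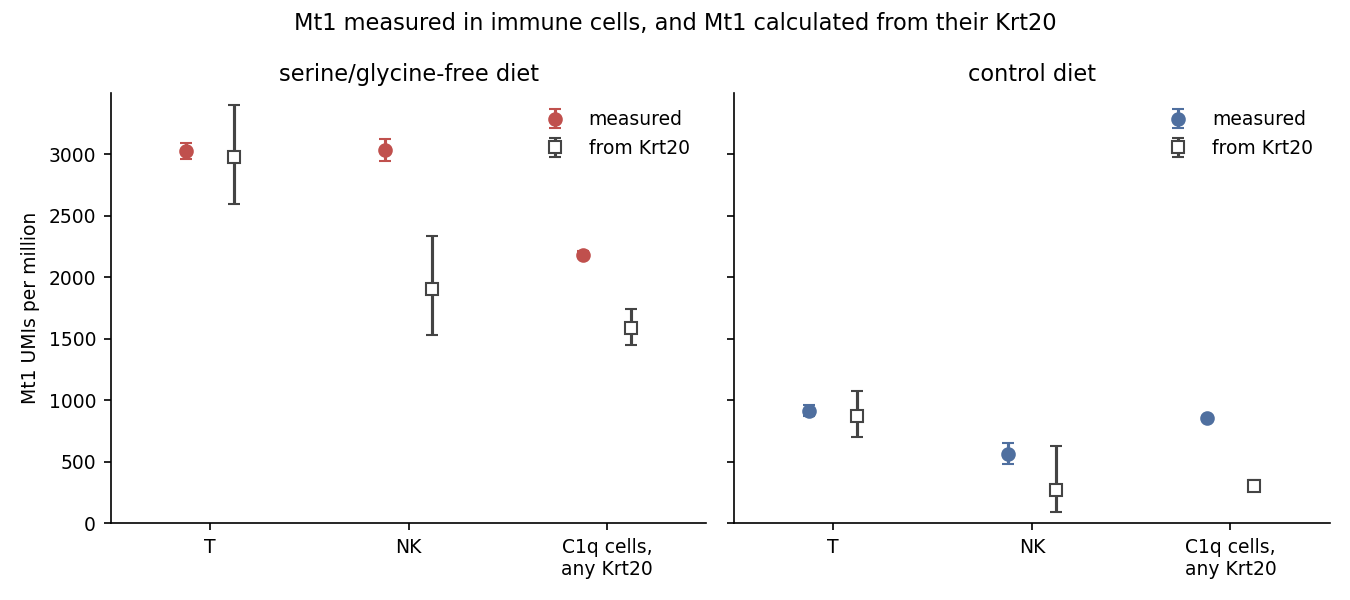
Mt1 in UMIs per 1000000 measured in T, NK and C1q cells (filled circles) and calculated from their Krt20 (open squares). The calculation used the proportion of Mt1 to Krt20 over all barcodes of the library. The serine/glycine-free library is on the left and the control library on the right. Bars are exact 95% Poisson intervals of the Mt1 or the Krt20 count; the pairs overlap in T cells of both libraries and stand apart in C1q cells of both libraries.

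The Mt1 of T and NK cells was held by few cells. Mt1 was at 0 in 160 of 243 T cells (65.8%) in the -SG library and in 192 of 242 (79.3%) in the control library, so the median T cell had none. The 10 T cells with the most Mt1 held 51.8% and 56.1% of the class's Mt1 UMIs. T cells with a Krt20 UMI, 29 and 17 of them with median depths of 30658 and 25053 UMIs, held 79.9% and 53.7%. NK cells had no Mt1 UMI in 71.4% and 58.8% of cells, and 1 cell held over 50% of the Mt1 of the 17 control NK cells. In macrophages only 7.59% and 14.4% of cells had none, and the median was 7 and 4 UMIs.

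A second gene of the tumour cells, Tm4sf1, was then used together with Krt20, a split chosen after the data were seen. T cells with neither gene, 205 and 207 of them, had Mt1 at 327 CPM (296 to 361) in the -SG library and at 71.2 CPM (52.8 to 93.8) in the control library. These are 0.0501 and 0.0407 of the tumour cell level, and the ratio between the diets was 4.60. NK cells with neither gene had 92.7 CPM (72.3 to 117) in 114 -SG cells, against 646 CPM (543 to 762) in 14 control cells, of which 4 had an Mt1 UMI. The direction in NK cells was thus the opposite of that in the whole class, on 140 control UMIs. Of these, 1 cell held 94, so the control level rests mostly on that cell. Macrophages with neither gene kept most of their level, at 968 CPM (943 to 993) in 560 -SG cells and at 699 CPM (678 to 720) in 629 control cells, a ratio of 1.38. Of those macrophages, 91.6% and 84.7% had an Mt1 UMI. Cells with neither gene were shallower than the rest, at medians of 4939 and 2579 UMIs in T cells.

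**Figure D4:**
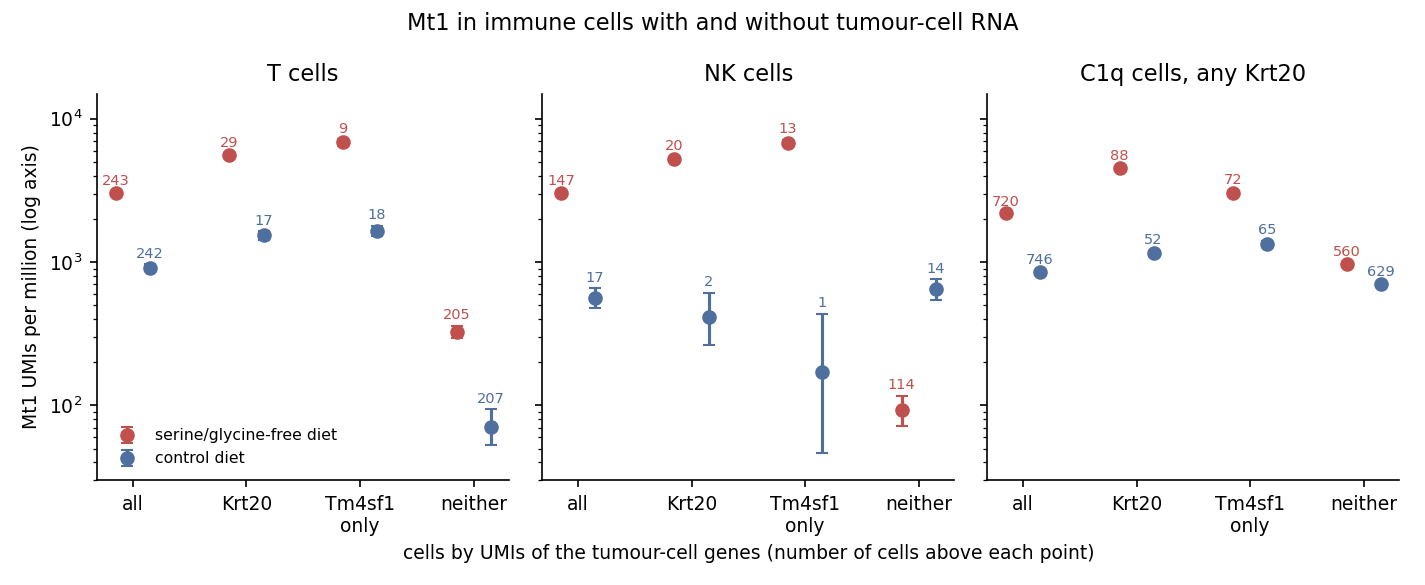
Mt1 in UMIs per 1000000 (log axis) in T, NK and C1q cells, for all cells, cells with a Krt20 UMI, cells with Tm4sf1 but no Krt20 UMI, and cells with neither, in the serine/glycine-free library (red) and the control library (blue). Numbers are cells and bars exact 95% Poisson intervals; T cells with neither gene were at 327 and 71.2 CPM, while C1q cells with neither were at 968 and 699 CPM.

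Thinned to 1000 UMIs a cell, Mt1 was found in 20.7% (15.7 to 26.4) of -SG T cells and 14.4% (10.1 to 19.6) of control T cells. Krt20 was found in 3.38% and 0.873% of them. In macrophages Mt1 was found in 50.5% (46.5 to 54.5) and 42.9% (39.1 to 46.7), and in Car9-free tumour cells in 95.3% and 67.9%. This left out 6 and 13 T cells and 18 and 25 macrophages with fewer UMIs. Without thinning, 34.2% and 20.7% of T cells and 92.4% and 85.6% of macrophages had an Mt1 UMI.

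CD8 and CD4 T cells were also set against their Krt20, at the same proportion over all barcodes. CD8 T cells, called by Cd8a or Cd8b1 without Cd4, had 2821 CPM of Mt1 (162 cells) in the -SG library and 491 CPM (69 cells) in the control library. Their Krt20 gives 3064 CPM (2622 to 3559) and 950 CPM (631 to 1373). CD4 T cells had 1515 CPM (30 cells) and 930 CPM (55 cells), where Krt20 gives 1787 CPM and 623 CPM (363 to 998). In none of these 4 groups was the measured Mt1 above the interval from Krt20, and in control CD8 T cells it was below it. In the -SG library T cells split by Pdcd1, the gene of the inhibitory receptor PD-1, lay on both sides of it. T cells with Pdcd1 had 2571 CPM (167 cells), below the 3088 CPM (2664 to 3560) from Krt20. T cells without Pdcd1 had 5187 CPM (76 cells), above 2461 CPM (1683 to 3474). T cells with no CD4 or CD8 call were above it too, at 4831 CPM (51 cells) against 3249 CPM (2310 to 4441). In the control library the same 3 groups, at 759, 965 and 1205 CPM, lay within the intervals from their Krt20.

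Slc30a1, which moves zinc out of the cytosol, had few UMIs in every class and the highest level in macrophages. Macrophages had 12.2 CPM (9.75 to 15.1) in the -SG library and 13.1 CPM (10.6 to 16.0) in the control library, from 86 and 95 UMIs. Tumour cells had 2.90 CPM and 2.91 CPM, from 335 and 316 UMIs, so the macrophage level was 4.20 times (3.28 to 5.34) and 4.51 times (3.55 to 5.69) that of tumour cells. In tumour cells the ratio between the diets was 0.998 (0.853 to 1.17), and in macrophages it was 0.929 (0.686 to 1.26). In Car9-high cells it was 1.65 (1.02 to 2.79), from 97 UMIs against 21, and in Car9-free cells 0.909 (0.756 to 1.09). T cells had 9 against 11 UMIs (3.60 CPM and 6.94 CPM, the last with an interval of 3.47 to 12.4 that overlaps that of control macrophages), and NK cells 7 against 0, where 3 UMIs would be 10.0 CPM in the control library. A difference the size of that in Mt1 or Mt2 lay outside the counting interval of Slc30a1 in tumour cells and macrophages. In the Ptprc-negative cells that met no rule, Slc30a1 was higher in the -SG library, at 5.00 CPM against 3.20 CPM. The ratio there was 1.57 (1.21 to 2.02), from 127 and 125 UMIs.

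Mtf1, the zinc sensor that binds the metal response elements, was lower in the tumour cells of the -SG library. It stood at 8.85 CPM (8.31 to 9.41) in the -SG library and at 11.9 CPM (11.3 to 12.6) in the control library, from 1022 and 1298 UMIs (ratio 0.741, 0.682 to 0.805). The ratio was 0.615 (0.479 to 0.793) in Car9-high cells and 0.789 (0.719 to 0.867) in Car9-free cells. In macrophages Mtf1 stood at 16.4 CPM and 15.1 CPM (ratio 1.09, 0.834 to 1.43), and in T cells 35 UMIs stood against 15 (ratio 1.48, 0.787 to 2.92). NK cells had 26 and 4 UMIs (16.4 CPM and 13.4 CPM). Macrophages, NK cells and T cells could not be told apart by counting error in either library, and in the -SG library all 3 were above tumour cells. The median log2 ratio of all tested genes in tumour cells was -0.11. Mtf1 itself was thus not higher in the tumour cells where Mt1 and Mt2 were.

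The other metallothioneins had few UMIs. Mt4, a metallothionein known from squamous epithelium, had 533 UMIs in -SG tumour cells against 48 in control tumour cells, or 4.61 CPM against 0.442 CPM (ratio 10.4, 7.77 to 14.3). In the -SG library it was lower in Car9-high cells, at 1.70 CPM against 5.58 CPM in Car9-free cells (ratio 0.305, 0.219 to 0.415). Mt4 thus differed between the diets in the direction of Mt1 and Mt2. Mt3, known from the brain, had 0 UMIs against 1 in tumour cells.

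Of the 25 genes of a list of Mt3, Mt4, zinc exporters (Slc30a) and zinc importers (Slc39a), 7 reached a mean of 20 CPM in tumour cells, all of them transporters. None was higher in the -SG library and 7 were lower, with a median log2 ratio of -0.22 against -0.11 for all 2654 tested genes. The highest were Slc30a9 (0.955, 0.903 to 1.01) and Slc39a13 (0.948, 0.911 to 0.985). The lowest were the importers Slc39a1 (0.845, 0.806 to 0.885) and Slc39a14 (0.711, 0.680 to 0.744), the last at 29.3 CPM in the -SG library and 41.2 CPM in the control library. No measured zinc transporter therefore differed as Mt1 and Mt2 did.

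Genes that share known inducers with the metallothioneins were set beside them in tumour cells. All 6 measured of 7 glucocorticoid targets were 2-fold or more higher in the -SG library, with a median log2 ratio of 1.58, where all tested genes had a median of -0.11 and 0.867% of them were 2-fold or more higher. The highest were Tsc22d3 (283 CPM against 79.1 CPM, ratio 3.58) and the kinase gene Sgk1 (330 CPM against 108 CPM, ratio 3.07), and the lowest the phosphatase gene Dusp1 (ratio 2.51) and Klf9 (ratio 2.39). In macrophages, where Mt1 had a ratio of 1.64, the 5 measured glucocorticoid targets were all higher, 4 of them 2-fold or more, with Fkbp5 (4.24) and Per1 (3.47) highest and Tsc22d3 (2.05) and Dusp1 (1.61) lowest. Of all genes tested in macrophages 1.29% were 2-fold or more higher, and their median log2 ratio was -0.10. In T cells 6 of 6 were higher and 0 reached 2-fold, with a median log2 ratio of 0.68 against -0.02 for all genes, of which 1.84% were 2-fold or more higher. T cells held Krt20 at 35.9% and 34.4% of the tumour cell level, and the part of tumour cell RNA in this count was not tested. Of 12 hypoxia genes 9 were measured in tumour cells and all were higher, 3 of them 2-fold or more, with a median log2 ratio of 0.72. The highest were Car9 (2.86) and Ndrg1 (2.03), and the lowest P4ha1 (1.34) and Vegfa (1.30).

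Most targets of the oxidant-responsive factor Nrf2 were lower in the -SG library, and genes of copper and iron handling were split. Of 6 measured Nrf2 targets 1 was higher and 0 were 2-fold or more lower, with a median log2 ratio of -0.39. All 2654 tested genes had a median of -0.11, so most tested genes were lower as well. The highest were Gclc (1.08) and Hmox1 (0.965), and the lowest Txnrd1 (0.678) and Srxn1 (0.661). Of 4 measured copper and iron genes 2 were higher, the ferritin genes Ftl1 (1.18) and Fth1 (1.12), and 2 lower, Ccs (0.980) and Sod1 (0.874). None of them was 2-fold different, and their median log2 ratio was 0.07, against -0.11 for all tested genes. Between Car9-high and Car9-free cells of a library, 1 of 6 measured glucocorticoid targets was higher in the -SG library (Per1, 1.03) and 1 of 5 in the control library (Klf9, 1.09). Their median log2 ratios were -0.31 and -0.17, against -0.12 and -0.13 for all genes tested, so the control value was near that of a typical gene. The 9 measured hypoxia genes, a list that holds Car9, had medians of 1.29 and 1.49.

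**Figure D5:**
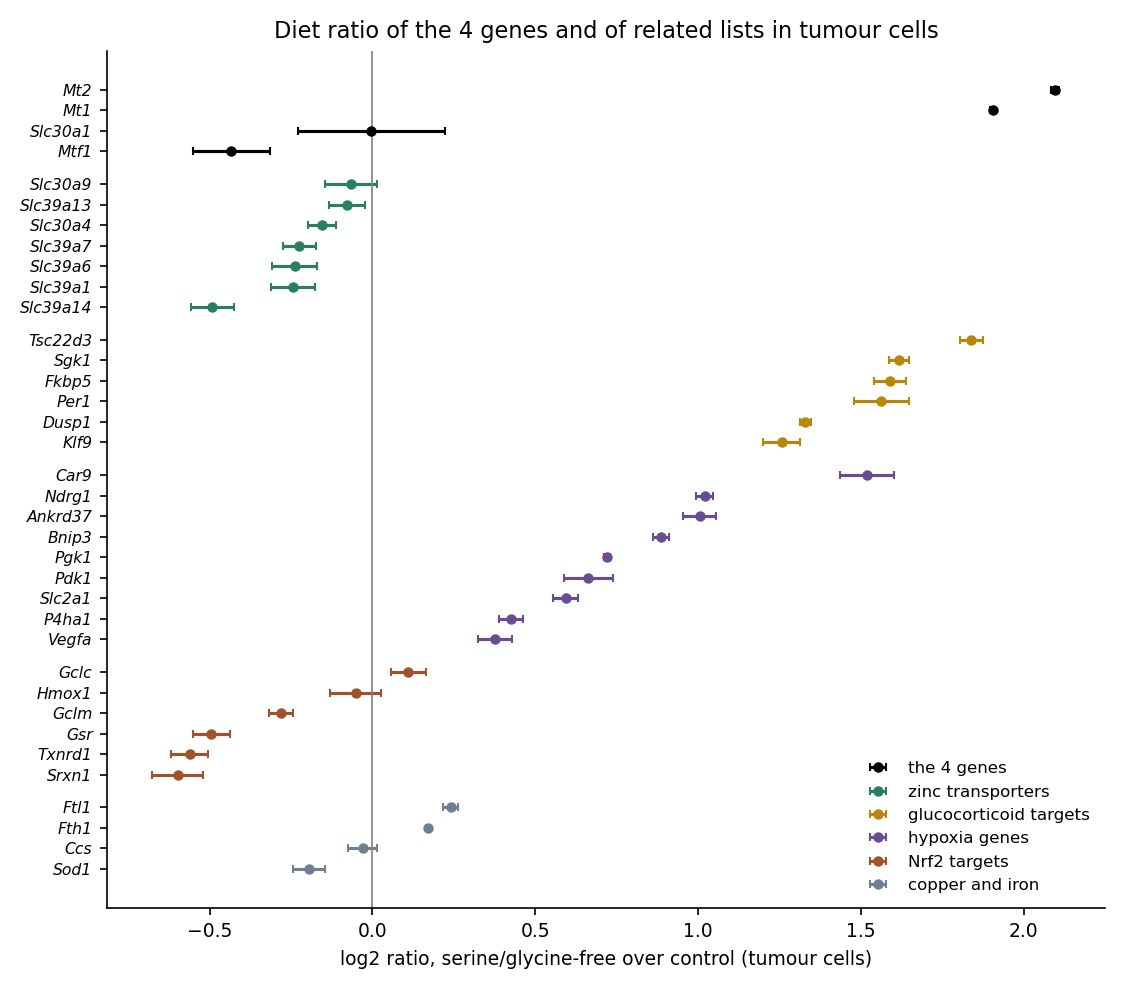
Log2 ratio of serine/glycine-free over control in tumour cells for the 4 genes and for the measured genes of 5 lists (mean of 20 CPM or more), with exact 95% counting intervals. Mt2 and Mt1 lie at 2.10 and 1.90, the glucocorticoid targets between 1.26 and 1.84, and the zinc transporters below 0.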

How the data were processed

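The matrices hold whole UMI counts, 1 value for each gene in each cell, and name Cell Ranger 7.1.0 per the file headers, while Cell Ranger 2.2.2 and mm10 stand in the submitters' processing notes. TCR contigs came from the authors' tables of contigs, which give UMI and read counts. The genes, classes and lists were chosen with earlier results of these data known. Barcodes under 300 genes or over 20% mitochondrial UMIs were left out. UMIs were summed by class and library and scaled by the sum without TCR and immunoglobulin genes (CPM). Thinning drew UMIs without replacement. List genes counted as measured at a mean of 20 CPM, and the 2 highest and 2 lowest ratios of a list were named; like genes were the 8 of highest r over cells and the 5 (Mt1) or 3 (Slc30a1, Mtf1) over points. All matrix barcodes were called cells by the authors, so free RNA was judged from Krt20, Tm4sf1 and Krt18. The ratio and its interval were tested on simulated data with known folds. Those data were Poisson sums per class, as the intervals assume, so the wider spread between cells was not covered. Alternatives changed the cell filter, denominator, cell weight, depth, class rules and cells left out. Python 3.11.15, numpy 2.4.6, scipy 1.17.1, pandas 2.3.3 and matplotlib 3.10.9 were used, with RefSeq promoters (GRCm38.p6).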

Additional observations from a re-analysis of the deposited data

Results flagged for a closer look

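Mt2 differed in opposite directions between the libraries when tumour cells were compared by Car9. The ratio of Car9-high over Car9-free cells was 0.896 (0.888 to 0.905) in the -SG library and 1.16 (1.12 to 1.19) in the control library. The median log2 ratio of all genes tested was -0.12 and -0.13, and 42.4% and 92.6% of genes had a lower ratio than Mt2, so that in the -SG library Mt2 lay near the middle of all genes. Each library is a single sample, so the difference between them was not tested.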

How the results depend on the processing

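In 39 results and 315 alternatives, the ratio between the diets was over 1 in 55 of 56 alternatives for Mt1 and in 54 of 55 for Mt2. The exceptions were NK cells with neither Krt20 nor Tm4sf1, where Mt1 gave 0.144 and Mt2 0.0957. There 1 control cell held 94 Mt1 UMIs, most of that group's count. The alternative with neither gene, and the diet ratio without the Krt20 condition on macrophages, were chosen after seeing the data. For Mt1, 42 alternatives moved by less than the counting interval, 49 moved by more and 1 turned. In T cells the Mt1 ratio of 3.31 became 4.30 with equal weight per cell, 3.57 after thinning, 1.74 for cells of 1 class without Krt20, 3.83 without the deepest 5% of cells, 4.60 with neither tumour gene and 1.10 after subtracting the level Krt20 gives. The 1.10 cannot be read as an estimate, because the interval of the subtracted level took in the measured Mt1 in both libraries. It stays among the 56 alternatives. The NK ratio of 5.39 became 2.91 after thinning, 2.99 for cells of 1 class without Krt20, 8.01 without the deepest 5%, 4.20 with stricter classes and 3.85 after the subtraction. The 2.91 cannot be read as an estimate, because thinning left too few control UMIs. In the thinned draw used for the shares of cells with Mt1, only 2 of the 17 control NK cells held an Mt1 UMI. Mean Mt1 there was 1.19 UMIs in -SG NK cells and 0.118 in control NK cells. The macrophage ratio of 1.64 became 1.57 with equal weight, 1.56 thinned, 1.73 with stricter classes, 1.38 with neither tumour gene and 2.56 without the Krt20 condition. In the thinned draw used for the shares, mean Mt1 was 1.15 UMIs in -SG macrophages and 0.797 in control macrophages. These means lie closer together than a ratio of 1.56. The ratio in Car9-free tumour cells, 3.82, became 3.86 without mitochondrial and ribosomal protein genes in the denominator, 4.06 with equal weight, 4.08 thinned, 3.91 without the deepest 5% and 3.68 with stricter classes. That in Car9-high cells, 2.87, became 2.81, 2.80, 2.79 and 2.76 under equal weight, thinning, leaving out the deepest 5% and stricter classes.

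Car9-high over Car9-free cells, 1.33 for Mt1 in the -SG library, became 1.25 thinned, 1.26 with Car9 classed after thinning, 1.36 with the other denominator, 1.24 with equal weight and 1.38 with stricter classes. The control value of 1.77 became 1.86 with Car9 classed after thinning, 1.82 with the other denominator and 1.84 with stricter classes. As a share of the tumour cell level, Mt1 with equal weight was 0.151 in -SG and 0.135 in control T cells, 0.179 and 0.144 in NK cells and 0.158 and 0.387 in macrophages. For cells of 1 class without Krt20 it was 0.166 and 0.357 in T cells and 0.274 in -SG NK cells. With neither tumour gene it was 0.0501 and 0.0407 in T cells, 0.0142 and 0.370 in NK cells and 0.148 and 0.400 in macrophages. The control NK value rests mostly on 1 cell. Without the Krt20 condition on macrophages it was 0.334 and 0.490. The causes were not tested. Slc30a1 had no ratio in NK cells, with 0 control UMIs, and Mt2 in T cells had none after the subtraction. No paired analysis was possible because each diet has 1 library. The 17 control NK cells and the few UMIs of Slc30a1 and Mtf1 limit what depth can show.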
